A study of Mus musculus with 32 samples.

Results

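The 10 genes described here are members of the mouse Nlrp family that oocytes express, leaving aside Nlrp5, and they are not all such genes. They were taken by symbol from a count table of 37441 genes, and all 10 were found: Nlrp2, Nlrp4a, Nlrp4b, Nlrp4c, Nlrp4e, Nlrp4f, Nlrp9a, Nlrp9b, Nlrp9c and Nlrp14. Each passed the filter on low counts, and they are among 19003 genes tested. The smallest count of any member in any library was 862 reads, for Nlrp4c.

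RNA was sequenced from oocytes of B6xD2 F1, D2 and B6 females at metaphase II (MII), when the mature egg awaits fertilisation, and at the germinal vesicle (GV) stage, when the oocyte is held in prophase of the first meiotic division. D2 and B6 are inbred strains and F1 is their hybrid, and the labels name no transgene in any group. The phosphodiesterase inhibitor IBMX, which holds oocytes at the GV stage, was in the medium in which GV oocytes were collected and is not named for MII oocytes, so its presence cannot be told apart from the stage. The females were 8 to 12 weeks old, the zona was removed from the oocytes of every group, and each of the 32 libraries was a pool of 9 to 20 oocytes from a single mother, so that variation between oocytes of a female was not measured. There were 5 F1 MII, 6 F1 GV, 5 D2 MII, 5 D2 GV, 6 B6 MII and 5 B6 GV libraries. The study compared oocyte transcriptomes of the hybrid and its parent strains at the 2 stages.

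Library totals ran from 18696957 to 39688961 counts. The libraries were sequenced in 2 batches on different instruments, batch 1 with 18 libraries and batch 2 with 14. The sample names of batch 2 form 2 sets. All its B6 libraries are in the same set, and its F1 MII libraries are all in the other. In batch 2 alone, a difference between F1 and B6 at MII therefore cannot be told apart from the set. Batch was a term in the model, and 42.4% of all genes differed between batches. All 10 members differed between batches too, from Nlrp4e (0.71 ± 0.08 higher on the log2 scale in batch 2 than in batch 1, SE) to Nlrp4f (−0.64 ± 0.07). The 10 oocyte marker genes checked, the zona genes and Gdf9 among them, summed to between 6798.5 and 9861 CPM (counts scaled to a common library size, here by the trimmed mean of M values, TMM) in MII libraries and between 7645 and 11272 CPM in GV libraries. Markers of granulosa and cumulus cells, which surround the oocyte, summed to 173 to 271 CPM in MII and 219 to 4091 CPM in GV libraries. In a bulk pool, fewer cells of a type cannot be told apart from less RNA per cell, and every level is relative to the rest of its library.

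Nlrp proteins are a family among the NOD-like receptors, built from a pyrin domain, a nucleotide-binding NACHT domain and leucine-rich repeats. Their best known members, such as NLRP3, sense infection or damage and assemble inflammasomes that activate caspase-1. A branch of the family expanded in rodents is instead expressed in the growing oocyte, and its proteins are stored in the egg for use after fertilisation. NLRP5 and NLRP4F are parts of the subcortical maternal complex, a protein assembly under the egg membrane that early embryos need to divide, and NLRP2 is associated with it. Mouse eggs lacking Nlrp2 or Nlrp14 give embryos that fail early.

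The Nlrp genes lay mostly on a single chromosome. In the GRCm38 build 9 of the 10 were on chromosome 7 and Nlrp4f was on chromosome 13, at 65177111 to 65205716. Nlrp2 spanned 5298547 to 5351035, Nlrp9b spanned 19991393 to 20062942, and Nlrp9c, Nlrp4a and Nlrp9a were neighbours between 26364691 and 26574148. Nlrp14 lay apart at 107113455 to 107198103. Several members are close copies of each other. Coding sequences of Nlrp4c and Nlrp4e were 93.6% identical, those of Nlrp9a and Nlrp9c 87.3%, and those of Nlrp4a and Nlrp4c 86.3%, while Nlrp2 was 48.8% to 52.2% identical to each other member. The ends of the Nlrp9 transcripts show how close the copies are. The 30 bases around the AATAAA polyadenylation signal (capitals), 19 bases before the annotated 3′ end in each, are given here from the GENCODE annotation of GRCm38:
Nlrp9a, + strand, chr7:26574112-26574141: acaagcacattcAATAAAcactaagcatgt
Nlrp9b, + strand, chr7:20062904-20062933: acaagcacatttAATAAAcactaagcgtgt
Nlrp9c, − strand, chr7:26364698-26364727: acaagcacattaAATAAAcactaagcatgt
Nlrp9c differed from Nlrp9a at 1 of the 30 bases, and Nlrp9b differed from each of the others at 2. A read of 50 bases still told most of these genes apart. The share of 50-base windows of its transcripts that also occurred in another gene was 36.7% for Nlrp4e, matched mainly in the pseudogenes Gm16443, Gm8486 and Gm8685 as well as Nlrp4c, and 10.7% for Nlrp4c. It was 7.79% for Nlrp9b, 6.07% for Nlrp9a, 5.95% for Nlrp4f and under 3% for Nlrp2, Nlrp4a and Nlrp9c, and no window was shared for Nlrp4b or Nlrp14. How the authors counted reads that map to several places is not given in the sources used here, so the level of Nlrp4e in particular is uncertain. Counting was not stated to use strand, and an exon of Nlrp2 overlaps 105 bases of the antisense pseudogene Gm18757, from which its reads cannot be told apart there, while Nlrp9b shares 136 exonic bases with Gm18877 on its own strand.

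Together the 10 genes averaged 5430 CPM, and Nlrp9b and Nlrp14 made up close to equal shares of it, 24.6% and 23.7%. Nlrp9b averaged 1337 CPM over the 32 libraries and Nlrp14 1288 CPM. Nlrp4a followed at 576 CPM, then Nlrp4f at 514, Nlrp9a at 496, Nlrp2 at 371, Nlrp9c at 315, Nlrp4b at 241, Nlrp4e at 232 and Nlrp4c at 60.4 CPM. Per kilobase of the longest transcript, Nlrp9b (399 CPM per kb) and Nlrp14 (394) again led and Nlrp4c (16.7) was last. On that scale Nlrp9b led in each of the 3 MII groups, at 425.5 CPM per kb beside 254 for Nlrp14 in F1 MII, 496 beside 341 in D2 MII and 434 beside 262 in B6 MII. Nlrp14 led in each of the 3 GV groups, at 498 CPM per kb beside 318.5 for Nlrp9b in F1 GV, 456.5 beside 341 in D2 GV and 555 beside 391.7 in B6 GV. Nlrp4c was last in all 6 groups. Some other members of the family had few reads. Nlrp3, which assembles an inflammasome, averaged 0.302 CPM in MII and 0.273 CPM in GV libraries, and Nlrp1a, Nlrp1b, Nlrp6 and Nlrp12 each averaged under 0.2 CPM at both stages. Others did not. Nlrp4g, a further Nlrp4 gene, averaged 215 CPM in MII and 190.5 CPM in GV, and the related receptor gene Nlrc4, whose protein also assembles an inflammasome, averaged 19.5 CPM in MII and 15.5 CPM in GV. All of these genes outside the 10 were chosen for naming after their values were seen.

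**Figure D1:**
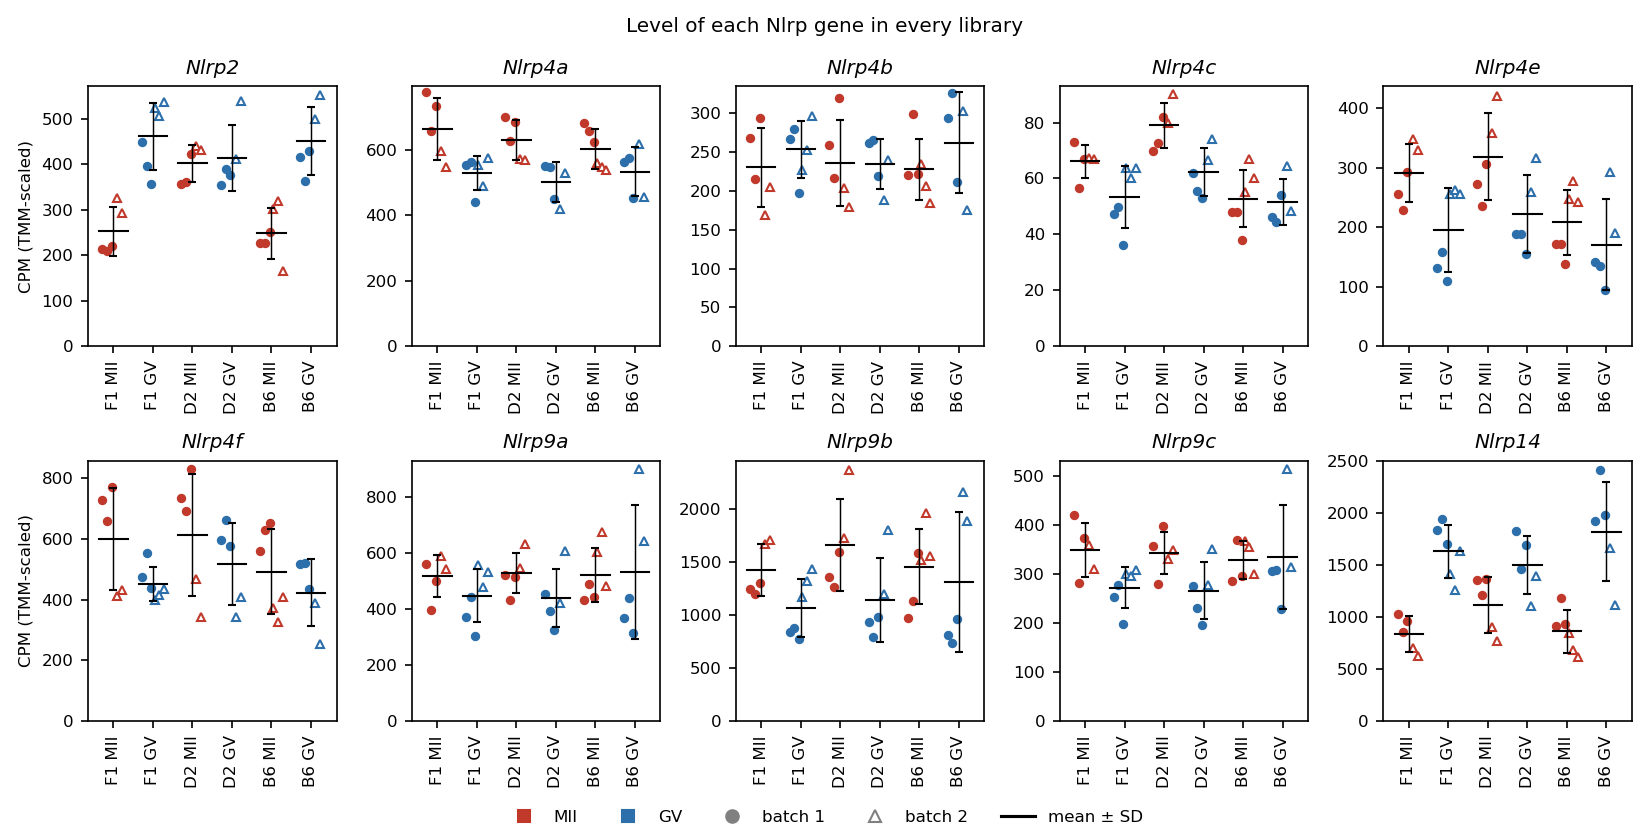
Level of each of the 10 Nlrp genes in every library, in TMM-scaled CPM on linear axes that start at 0. Points are libraries (red MII, blue GV, filled circles batch 1, open triangles batch 2), and bars are group means ± SD (n = 5 or 6). Nlrp2 is lower in F1 MII and B6 MII than in any other group, Nlrp14 is lower at MII in each strain, and within each group the points of the batches do not overlap for Nlrp4e and Nlrp4f.

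Nlrp14 and Nlrp2 were lower in MII than in GV oocytes averaged over the strains, by 0.83 ± 0.06 and 0.59 ± 0.07 on the log2 scale (SE). The other 6 called members, Nlrp4a, Nlrp4c, Nlrp4e, Nlrp4f, Nlrp9b and Nlrp9c, rose by 0.23 to 0.50, and Nlrp9a (0.18 ± 0.08, adjusted p = 0.070) and Nlrp4b (−0.12 ± 0.08, adjusted p = 0.231) did not pass. P-values throughout are from quasi-likelihood F tests in edgeR, adjusted by Benjamini and Hochberg's method over all 19003 genes, and the threshold is 0.05. Of all genes tested, 22.9% were called higher and 29% lower at MII in the same contrast, a background against which the 6 and 2 of 10 members are to be read. The median log2 change was 0.24 over the members and −0.06 over all genes.

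Nlrp14, whose protein eggs need for embryos to develop, showed the largest fall among the members. In F1, MII pools had 1028, 851 and 960.0 CPM in batch 1 and 695 and 622 CPM in batch 2, against 1260 to 1939 CPM (median 1669) in F1 GV pools. In D2, MII pools had 1350, 1204, 1361, 898 and 768 CPM, against 1822, 1463, 1690, 1106 and 1387 CPM in D2 GV pools. Each F1 MII pool lay below every F1 GV pool, while the D2 stages overlap over both batches, the batch 2 libraries being lower at each stage. In B6, MII pools ran from 609 to 1180 CPM (median 875), against 1922, 2410, 1977, 1663 and 1110 CPM in B6 GV pools, and 5 of the 6 MII pools lay below the lowest GV pool. Within batch 1 each of the 9 MII libraries was below each of the 9 GV libraries, at 1086 ± 193 against 1862 ± 260 CPM (SD), and within batch 2 each of 7 was below each of 7, at 731 ± 110 against 1367 ± 226 CPM (SD). Of all genes, 8.39% separated the stages downward in this way in batch 1 and 3.57% in batch 2, and Nlrp14 was the only member to do so in either. The fall was 1.03 ± 0.11 in F1 (adjusted p = 6.28e-09), 0.44 ± 0.11 in D2 (adjusted p = 0.00377) and 1.03 ± 0.11 in B6 (adjusted p = 6.67e-09). The D2 call was lost in batch 2 alone, where the estimate was −0.70 (adjusted p = 0.067), and without the batch term. The difference in fall between D2 and B6, 0.59 ± 0.16, did not pass (adjusted p = 0.150).

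Nlrp2 fell in F1 and B6 oocytes and not detectably in D2. Its protein is linked to the subcortical maternal complex. F1 MII pools had 214, 209, 220.1, 325 and 294 CPM, against 356 to 539 CPM (median 479) in F1 GV pools. D2 MII pools had 356, 362, 422, 440.1 and 433 CPM, against 356, 391, 376, 411 and 539 CPM in D2 GV pools. B6 MII pools had 165 to 319 CPM (median 239), against 415, 364, 429, 500.2 and 554 CPM in B6 GV pools. In F1 and in B6 every MII pool lay below every GV pool, and in D2 no MII pool did. Of all genes, 6.44% had all F1 MII libraries below all F1 GV libraries and 4.5% all B6 MII below all B6 GV libraries. The log2 change was −0.85 ± 0.11 in F1 (adjusted p = 7.71e-07), −0.03 ± 0.12 in D2 (adjusted p = 0.860, 95% interval −0.27 to 0.21) and −0.88 ± 0.11 in B6 (adjusted p = 3.29e-07). Within batch 1 alone it was −0.91 in F1 and −0.75 in B6, and within batch 2 alone −0.82 and −1.05, each past the threshold.

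The difference between strains in the change of Nlrp2 was tested directly. The change in D2 was higher than that in B6 by 0.85 ± 0.16 (SE, adjusted p = 0.0142), and Nlrp2 was 1 of 20 genes, 0.105% of those tested, that passed this test of stage by strain. No other member passed, the next lowest adjusted p being that of Nlrp14. The call ended in either batch alone, with estimates of 0.69 ± 0.18 in batch 1 (adjusted p = 0.226) and 0.81 ± 0.31 in batch 2 (adjusted p = 0.458), without a batch term (0.82, adjusted p = 0.365), with the replicate number as a block (0.81, adjusted p = 0.0742), and without any single one of 10 libraries. Those were 4 D2 GV pools (batch 1 replicates 3, 4 and 5 and batch 2 replicate 1), B6 GV batch 2 replicate 2, B6 MII batch 1 replicates 2 and 3, F1 GV batch 1 replicate 3 and batch 2 replicate 3, and F1 MII batch 1 replicate 4, with estimates of 0.71 to 0.82 and adjusted p of 0.0521 to 0.113. The estimate stayed positive in each of these fits. The hybrid was set against each parent as a contrast added after this difference was seen. F1 differed from D2 in its change by −0.81 ± 0.16 with adjusted p = 0.0509, passing in 7 of 14 other settings, and from B6 by 0.04 ± 0.16 with adjusted p = 0.981.

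**Figure D2:**
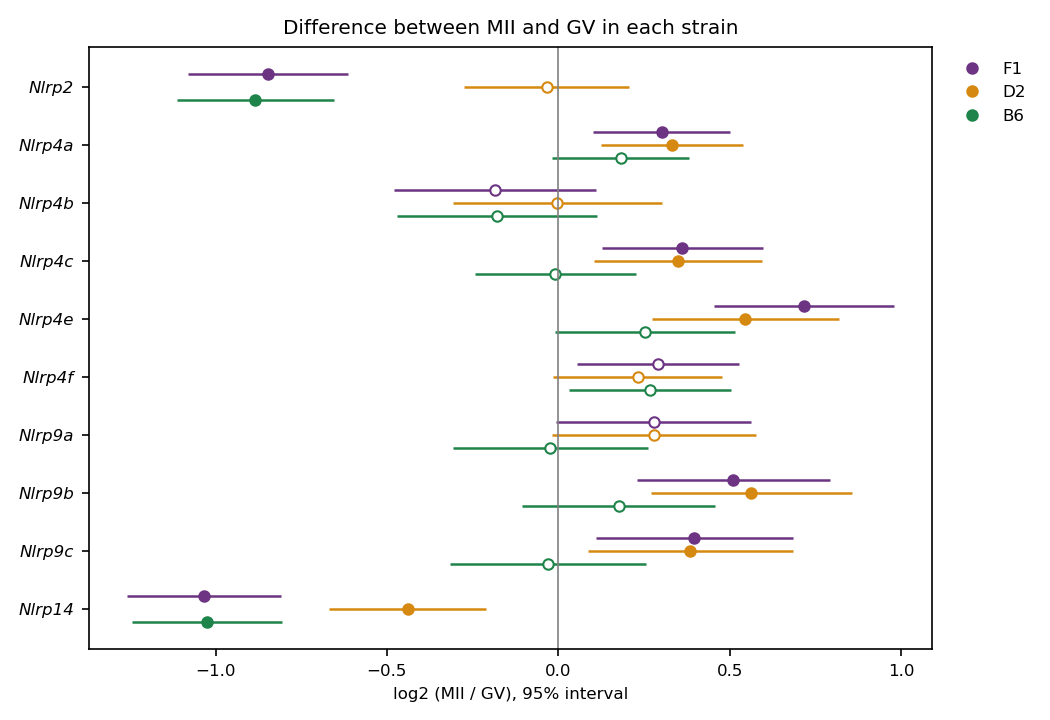
Log2 ratio of MII to GV for each member in F1, D2 and B6, with 95% intervals from the edgeR fit. Filled points passed an adjusted p of 0.05 and open points did not. For Nlrp2 the F1 (−0.85) and B6 (−0.88) points stand apart from D2 (−0.03). For Nlrp4a, Nlrp4c, Nlrp4e, Nlrp9b and Nlrp9c the F1 and D2 points are filled and the B6 points open. Averaged over strains, which is not drawn here, the direction turns for Nlrp4c and Nlrp9a under scaling to library totals.

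Nlrp14 was the only member called lower in D2, and rises were called in F1 and D2 and not in B6. In F1 5 members were called higher (14.9% of all genes) and 2 lower (18%). In D2 5 were higher (13.1% of all genes) and 1 lower (15.6%), and in B6 0 were higher (10.3%) and 2 lower (16.4%). In B6 1 member, Nlrp4f, was higher at an unadjusted p under 0.05, and DESeq2 and limma-voom also called 0 higher, while in batch 1 alone Nlrp4f and Nlrp9b were called higher. The 5 in F1 and in D2 were Nlrp4a, Nlrp4c, Nlrp4e, Nlrp9b and Nlrp9c. In D2 the call of Nlrp9c ended without any single one of 22 libraries (0.26 to 0.41, adjusted p 0.0512 to 0.247) and that of Nlrp4c without any of 13 (0.27 to 0.34, adjusted p 0.0547 to 0.142), and that of Nlrp4a without D2 GV batch 1 replicate 5, D2 GV batch 2 replicate 1, B6 GV batch 1 replicate 4 or B6 MII batch 1 replicate 2 or 3 (0.23 to 0.28, adjusted p 0.0513 to 0.131). In F1 the calls of Nlrp4a, Nlrp4c and Nlrp9c each ended without F1 MII batch 1 replicate 3 or F1 GV batch 1 replicate 5, and that of Nlrp9c also without F1 GV batch 1 replicate 2 or F1 MII batch 1 replicate 5. The estimates then were 0.21 to 0.25 for Nlrp4a (adjusted p 0.0647 to 0.0991), 0.26 to 0.29 for Nlrp4c (0.0682 to 0.0881) and 0.30 to 0.37 for Nlrp9c (0.0582 to 0.124). None of these differed between D2 and B6 in the test of stage by strain, where their differences were 0.15 to 0.41 and adjusted p 0.485 to 0.773.

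Nlrp4e, which early mouse embryos need for their first cleavages, rose most. F1 MII pools had 256, 229, 294, 348 and 329.9 CPM, against 109 to 263 CPM (median 207) in F1 GV pools. D2 MII pools had 272, 235, 307, 358 and 421 CPM, against 189, 189, 154, 260.1 and 317 CPM in D2 GV pools. B6 MII pools had 139 to 278 CPM (median 207), against 141, 134, 93.8, 293 and 191 CPM in B6 GV pools. The stages overlap in every strain over both batches, and batch 2 libraries are higher at both stages. On average over strains the rise was 0.50 ± 0.08 (adjusted p = 9.77e-07), with 0.64 in batch 1 alone and 0.23 in batch 2 alone, where it did not pass (adjusted p = 0.0898).

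Nlrp9b was the most abundant member at MII, with 1424 ± 245 CPM in F1 MII and 1066 ± 275 in F1 GV, 1659 ± 436 in D2 MII and 1140 ± 397 in D2 GV, and 1452 ± 355 in B6 MII and 1311 ± 662 in B6 GV (SD, n = 5 or 6). In mouse intestine its protein takes part in an inflammasome against rotavirus, and together with Nlrp9a and Nlrp9c it is needed for normal preimplantation development. It rose by 0.42 ± 0.08 over the strains (adjusted p = 5.47e-05), at 0.57 in batch 1 and 0.11 in batch 2 (adjusted p = 0.485). Nlrp9c, at 349 ± 54.6 CPM in F1 MII and 272 ± 41.2 in F1 GV, rose by 0.25 ± 0.08 over the strains (adjusted p = 0.0110), with 0.42 in batch 1 and −0.08 in batch 2. Nlrp9a was 517 ± 74.7 CPM in F1 MII and 447 ± 96.2 in F1 GV, and 520 ± 96.6 in B6 MII and 531 ± 240 in B6 GV. Its spread among B6 GV pools, from 314 to 898 CPM, exceeded any difference between its groups.

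Among the other Nlrp4 genes, Nlrp4a had 568.8 to 699.9 CPM in D2 MII pools and 420.3 to 552.5 CPM in D2 GV pools, with no overlap (3.25% of all genes separated upward in D2). In batch 1 each of the 9 MII libraries lay above each of the 9 GV libraries, which 2.88% of all genes did, while in batch 2 no MII library lay above the highest GV library. Its rise over strains was 0.27 ± 0.06 (adjusted p = 1.62e-04), with 0.37 in batch 1 and 0.05 in batch 2 (adjusted p = 0.726). Nlrp4f, a part of the subcortical maternal complex, had 601 ± 168 CPM in F1 MII and 452 ± 55.5 in F1 GV, and 492 ± 141 in B6 MII and 423 ± 111 in B6 GV (SD). It rose by 0.26 ± 0.07 (adjusted p = 0.00147), with 0.38 in batch 1 and 0.04 in batch 2, although it passed in no single strain. Nlrp4c rose by 0.23 ± 0.07 (adjusted p = 0.00397), with 0.26 in batch 1 and 0.08 in batch 2. Nlrp4b had group means between 228 CPM in B6 MII and 262 CPM in B6 GV, each within the spread of the next.

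The falls of Nlrp2 and Nlrp14 over the strains were called in all 14 other settings tried and in all 32 fits that left out 1 library, while the 6 rises were not called on every scale or in both batches. TMM factors were 0.806 to 1.02 in MII libraries (median 0.925) and 0.909 to 1.19 in GV libraries (median 1.11). On library totals alone the median log2 change of all genes was −0.30, against −0.06 on the TMM scale. With totals 2 members were higher (Nlrp4e 0.27 and Nlrp9b 0.18) and 3 lower (Nlrp2 −0.82, Nlrp14 −1.07 and Nlrp4b −0.36). Nlrp4c turned to −0.0005 and Nlrp9a, called on neither scale, to −0.05. Relative to the median of all genes the members hardly moved between the scalings, for example Nlrp4c at 0.29 on both and Nlrp14 at −0.77 on both. In batch 2 alone 0 members were higher and 3 lower, and in batch 1 alone 7 were higher, Nlrp9a included, and 2 lower. Calls over all genes moved as well. On library totals 1786 were higher and 7170 lower of 19003 genes, beside 4354 and 5508 on the TMM scale. In batch 2 alone 1819 were higher and 2684 lower of 19097, and in batch 1 alone 3540 and 5488 of 19265.

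Granulosa markers moved with the stage as well. Of 24 tested, 18 were lower (29% of all genes) and 2 higher (22.9%) at MII, and Foxl2 was at 0 in all MII libraries. With their level as a covariate Nlrp2 (−0.67) and Nlrp14 (−1.01) were called lower and no member was called higher, the other estimates lying between −0.38 and 0.18. Without 3 GV libraries of batch 2 whose marker level lay within the MII range, a choice made after seeing the data, 7 members, Nlrp9a among them, were higher over the strains and 2 lower, and in B6 alone Nlrp4a, Nlrp4e and Nlrp4f were higher, 5 members being called there. Over all genes and averaged over strains, the fit with the covariate called 1114 higher and 1588 lower of 19003. Without the 3 GV libraries 4485 were higher and 5802 lower of 19493. The part of granulosa RNA in these differences was not tested.

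**Figure D3:**
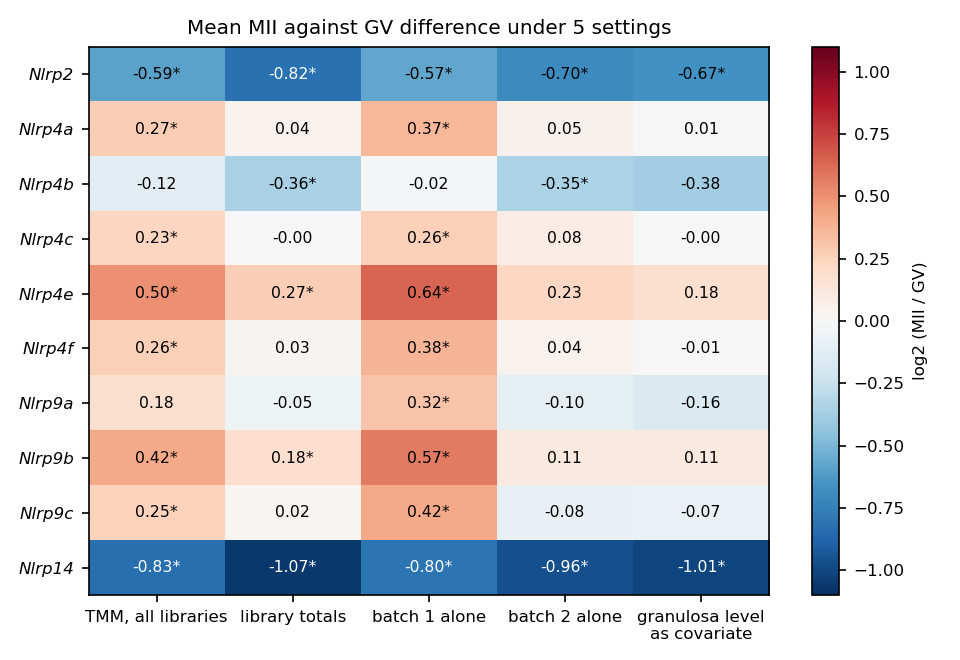
Log2 ratio of MII to GV averaged over the 3 strains, by member (rows), under 5 settings (columns). Colour and number give the estimate, and an asterisk an adjusted p under 0.05. The Nlrp2 and Nlrp14 rows are negative and starred throughout, while the rises of the other members shrink towards 0, or turn negative for Nlrp4c and Nlrp9a, on library totals and lose their stars in batch 2 alone and with the granulosa covariate.

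Between the parent strains, Nlrp2, Nlrp4e, Nlrp4c and Nlrp14 were higher in D2 than in B6 eggs at MII. These 4 members were called higher in D2 (13.4% of all genes) and 0 lower (13%). At GV 1 was higher, Nlrp4e (9.16% of all genes), and 0 lower (11.3%). At an unadjusted p under 0.05, 0 members were lower at MII and 2, Nlrp9c and Nlrp14, at GV, and DESeq2 and limma-voom called 0 lower at either stage. For Nlrp2 each D2 MII pool, at 356 CPM or more, lay above each B6 MII pool, at 319 CPM or less, and the difference was 0.73 ± 0.11 (adjusted p = 4.40e-06), with 0.65 in batch 1 and 0.68 in batch 2. At GV its difference was −0.12 ± 0.12 (adjusted p = 0.539). Of 24 granulosa and cumulus markers tested, 5 were higher and 1 lower in D2 than in B6 at MII, and their part in these differences was not tested. A single genome build, GRCm38.p4, is named for the reads of all strains. The part of sequence differences between strains in the D2, B6 and F1 comparisons was not tested either.

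Nlrp4c was the least abundant member and a near copy of Nlrp4e. It had 69.9, 72.5, 82.0, 80.0 and 90.4 CPM in D2 MII pools, against 38.1 to 67.0 CPM (median 51.6) in B6 MII pools. These groups did not overlap, as with Nlrp2, and 6.2% of all genes had every D2 MII library above every B6 MII library. The difference was 0.63 ± 0.12 (adjusted p = 6.07e-05), with 0.69 in batch 1 and 0.44 in batch 2 (adjusted p = 0.0990). At GV the D2 pools had 61.9, 55.6, 52.9, 66.6 and 74.3 CPM, against 46.4, 44.5, 54.1, 64.5 and 48.3 CPM in B6 pools, a difference of 0.27 ± 0.12 that did not pass (adjusted p = 0.120). Nlrp4e was higher in D2 by 0.70 ± 0.13 at MII (adjusted p = 5.32e-05, 0.71 in batch 1 and 0.55 in batch 2) and by 0.41 ± 0.13 at GV (adjusted p = 0.0247). The MII call ended without a batch term (0.61, adjusted p = 0.0897). The GV call ended in batch 2 alone (0.28, adjusted p = 0.358) and without D2 GV batch 2 replicate 2 (0.38, adjusted p = 0.0655). The values of Nlrp4c and Nlrp4e may share reads, since 6.97% of the 50-base windows of Nlrp4c occur in Nlrp4e and 8.24% the other way.

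Nlrp14 was higher in D2 MII (1116 ± 270 CPM, SD, n = 5) than in B6 MII pools (858 ± 203 CPM, SD, n = 6) by 0.32 ± 0.11 (adjusted p = 0.0250), and at GV the difference was −0.27 ± 0.11 (adjusted p = 0.0936). The MII call ended on library totals, without a batch term (0.38, adjusted p = 0.183), in each batch alone (0.32 in batch 1, adjusted p = 0.0941, and 0.18 in batch 2, adjusted p = 0.612) and without any of B6 MII batch 1 replicates 1 and 3, B6 MII batch 2 replicate 3 or D2 MII batch 1 replicate 4, where it was 0.28 to 0.29 with adjusted p of 0.0608 to 0.0663. For Nlrp4f the D2 estimates were 0.25 at MII and 0.28 at GV, with adjusted p of 0.121 and 0.103. The other members were within 0.33 of 0 at both stages and did not pass.

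**Figure D4:**
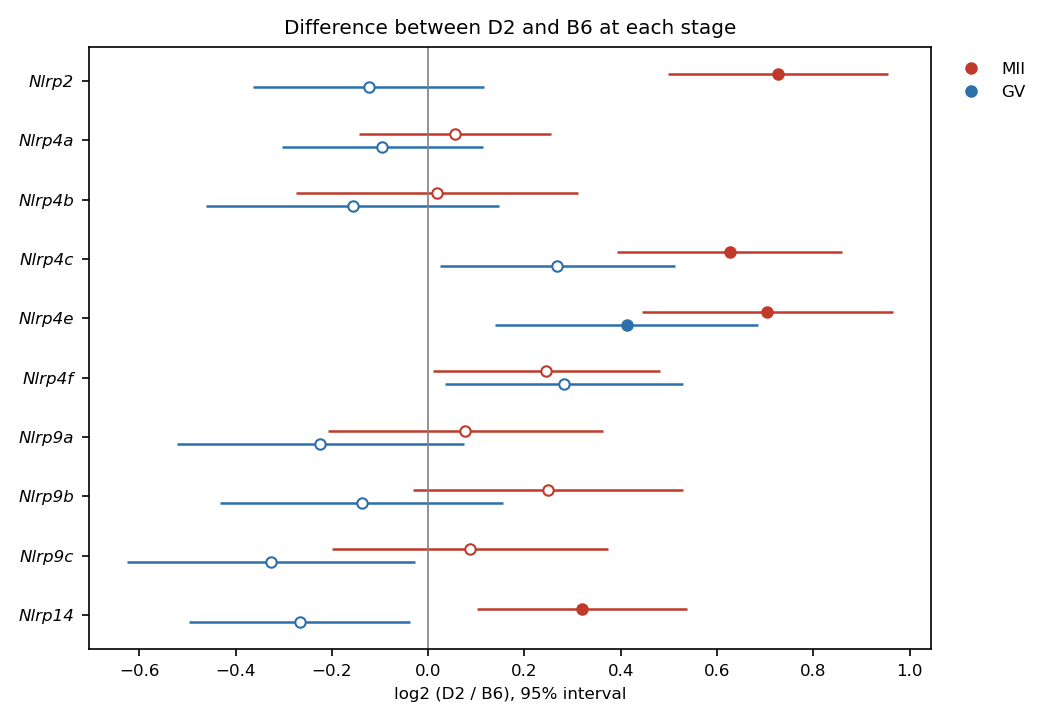
Log2 ratio of D2 to B6 for each member at MII (red) and GV (blue), with 95% intervals. Filled points passed an adjusted p of 0.05. Nlrp2 (0.73), Nlrp4c (0.63), Nlrp4e (0.70) and Nlrp14 (0.32) are filled at MII and Nlrp4e (0.41) is at GV.

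At MII the hybrid differed from B6 in the level of 2 members and from D2 in that of 2 others. Against B6 at MII, F1 was higher for Nlrp4e (0.59 ± 0.13, adjusted p = 0.00248) and Nlrp4c (0.38 ± 0.12, adjusted p = 0.0378), with 4.66% of all genes higher. The Nlrp4e difference was 0.65 in batch 1 and 0.39 in batch 2 alone (adjusted p = 0.353), and its call also ended without a batch term (0.49, adjusted p = 0.363). The Nlrp4c call ended in each batch alone (0.51 and 0.13), under 3 other scalings (0.34 to 0.36, adjusted p 0.0510 to 0.0644), with no filter (0.37, adjusted p = 0.176), without a batch term (0.33, adjusted p = 0.282), with the replicate number as a block (0.47, adjusted p = 0.0844) and without any of 6 libraries, B6 MII batch 1 replicates 1, 2 and 3, B6 MII batch 2 replicate 1 and F1 MII batch 1 replicates 3 and 5 (0.31 to 0.38, adjusted p 0.0578 to 0.133). Against D2 at MII, F1 was lower for Nlrp2 (−0.69 ± 0.12, adjusted p = 8.95e-05) and Nlrp14 (−0.42 ± 0.11, adjusted p = 0.0150), with 3.2% of all genes lower. Each F1 MII pool of Nlrp2 was below each D2 MII pool, which was so for 2.16% of all genes. That difference was −0.81 in batch 1 and −0.46 in batch 2 (adjusted p = 0.448), and the Nlrp14 difference was −0.45 and −0.31 (adjusted p = 0.0520 and 0.593), its call ending too without a batch term (−0.43, adjusted p = 0.295), with the replicate number as a block (−0.38, adjusted p = 0.0572) and without F1 MII batch 1 replicate 4 (−0.37, adjusted p = 0.0525).

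Nlrp2 was at 252 ± 53.5 CPM in F1 MII, beside 403 ± 40.3 CPM in D2 MII and 249 ± 55.9 CPM in B6 MII (SD, n = 5, 5 and 6). Against the mean of the parents' log2 levels, F1 MII was at −0.33 ± 0.10 for Nlrp2, which did not pass (adjusted p = 0.132), and no member passed against it at MII (1.16% of all genes called either way) or at GV (0.879%). At MII 3 members had an unadjusted p under 0.05, and Nlrp2 passed with DESeq2 (−0.35, adjusted p = 0.0395) and in batch 1 alone (−0.49, adjusted p = 0.0291), while limma-voom called 0. At GV 0 members had an unadjusted p under 0.05, and DESeq2 and limma-voom called 0. No member passed at GV against B6 (5.5%) or against D2 (6.05%), with 2 members at an unadjusted p under 0.05 in each and 0 called by DESeq2 and limma-voom. In batch 2 alone Nlrp9b was lower in F1 GV than in B6 GV (−0.64, adjusted p = 0.0391). At GV the F1 estimates for Nlrp2 were 0.12 ± 0.11 against D2 and −0.003 ± 0.11 against B6.

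Levels of the members moved together in 2 sets across the 32 libraries, as a description on log2 CPM centred within each batch. Nlrp2 and Nlrp14, which both fell, correlated at r = 0.827. Nlrp9a and Nlrp9c correlated at r = 0.891, Nlrp4c and Nlrp4e at 0.846, Nlrp4a and Nlrp9c at 0.835, and Nlrp4e and Nlrp4f at 0.803. Between the sets most values were below 0, down to −0.505 for Nlrp14 and Nlrp9b, and Nlrp4b stood between them. The points share the stage and strain differences above as well as library depth and scale, and paralogs may share reads.

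**Figure D5:**
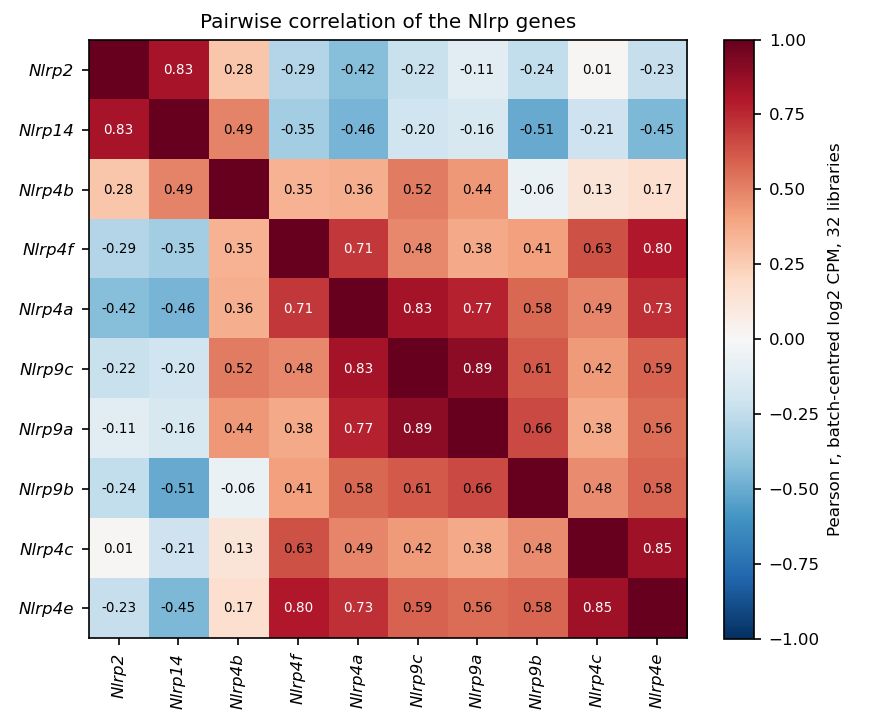
Pearson correlation between members over the 32 libraries, on log2 CPM centred within batch. Red is positive and blue negative. The Nlrp2 and Nlrp14 cell (0.83) stands apart from the block of Nlrp4a, Nlrp4c, Nlrp4e, Nlrp4f and the Nlrp9 genes, within which values run from 0.38 to 0.89.

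Nlrp9a and Nlrp9c, the most alike pair in level, also had the closest upstream sequence among the windows compared. Only the first listed RefSeq start of each gene was used, and a further start of Nlrp4a and of Nlrp4b was not compared. The 250 bases before the start of Nlrp9a and Nlrp9c on GRCm38.p6 aligned at 65.7% identity, the other pairs compared at 39.9% to 59.0%. The longest run identical in both was 106 bases, ending 12 bases before the start in Nlrp9a and 56 in Nlrp9c. No other pair compared had a run over 12 bases. In the pair printed here capitals mark CANNTG, the E-box bound by basic helix-loop-helix factors such as FIGLA and SOHLH1, and TAATTG, a motif bound by the oocyte homeobox factor NOBOX, on either strand. No marked motifs overlap.
Nlrp9a, + strand, chr7:26534773-26535022: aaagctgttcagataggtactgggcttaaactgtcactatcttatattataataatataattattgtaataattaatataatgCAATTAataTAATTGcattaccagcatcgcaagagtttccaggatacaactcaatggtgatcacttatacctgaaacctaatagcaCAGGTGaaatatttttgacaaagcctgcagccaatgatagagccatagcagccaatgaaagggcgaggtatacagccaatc
Nlrp9c, − strand, chr7:26403701-26403950: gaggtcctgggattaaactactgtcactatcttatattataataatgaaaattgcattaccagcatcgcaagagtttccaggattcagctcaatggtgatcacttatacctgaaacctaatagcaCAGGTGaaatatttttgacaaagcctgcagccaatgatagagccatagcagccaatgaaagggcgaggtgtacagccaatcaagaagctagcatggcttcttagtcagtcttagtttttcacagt
Both windows held 1 E-box, CAGGTG in each, and Nlrp9a held TAATTG at 2 places, on opposite strands, which the Nlrp9c window did not hold. Of 32851 mouse windows of the same length, 66.2% held CANNTG and 7.17% TAATTG. Among the 9 members with an entry, TAATTG was found in Nlrp9a and Nlrp9b, and Nlrp2 and Nlrp4e held neither motif. The Nlrp9b window, at 20007773 to 20008022, lies before an internal start, within the gene span given above. These are matches of letters and not shown binding sites.

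Stored oocyte mRNAs that are translated during maturation often carry TTTTAT, the cytoplasmic polyadenylation element bound by CPEB1, near the polyadenylation signal. In the last 100 bases of the annotated 3′ UTR it was found in Nlrp4a, Nlrp4c and Nlrp4f (capitals) and in no other member:
Nlrp4a, + strand, chr7:26476084-26476113: cttttcatccaaTTTTATgtcatctctcac
Nlrp4c, + strand, chr7:6105106-6105135: ctgttttgtgttTTTTATtaaataataaat
Nlrp4f, − strand, chr13:65177128-65177157: tgctgttttgtgTTTTATattaaagaatag
Of 19269 genes with such a window, 13.7% held it. The windows of Nlrp4a and Nlrp4f held no AATAAA signal. Other forms of the signal were not searched for, and the Nlrp4f bases above hold ATTAAA after the element. Any link between the element and the change at MII was not tested. The annotated ends were not checked against reads, and translation and tail length were not measured here.

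By the likeness of its level over the 32 libraries, the mean profile of the 10 members was closest to Alg13 (r = 0.847) and Klhl15 (0.842), and Fbxo30 (0.779) and Alms1 (0.777) were also among the 5 closest, of 8869 named genes of at least 5 CPM. Nlrp9b, the member with the highest mean, was closest to Lrr1 (0.891), Eif4g2 (0.877), Ccnyl1 (0.872), Rab21 (0.868) and AU015836 (0.863). Nlrp2, added after its strain difference was seen, was closest to Fbxw19 (0.897), Slc15a4 (0.894) and Tuba1c (0.880), and Rpl7a (0.877) was also among its 5 closest. For these 4 named genes the log2 ratio of MII to GV over the strains was −1.70 to −0.64, and that of D2 to B6 at MII was 0.55 to 1.05. The genes were picked by likeness to Nlrp2 over the same libraries, so these directions follow from the choice and are no separate result.

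Genes that work with the Nlrp proteins were listed too. Of 6 genes of the subcortical maternal complex and cytoplasmic lattice, 4 fell at MII (29% of all genes) and 2 rose (22.9%). The median was −0.45 against −0.06 for all genes. Khdc3, which encodes a partner in the complex, fell by 3.34 ± 0.13 (adjusted p = 3.57e-20), Tle6, which links its parts, fell by 0.77 ± 0.07 (adjusted p = 2.99e-11) and Padi6, needed for the lattices, fell by 0.67 ± 0.06 (adjusted p = 8.28e-12), while Zbed3 rose by 0.61 ± 0.07 (adjusted p = 2.37e-08). At MII 2 of the 6 were higher in D2 than in B6 (13.4% of all genes), Khdc3 by 1.33 ± 0.21 and Padi6 by 0.36 ± 0.10.

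Of 7 genes for imprint maintenance or linked to NLRP14, 4 fell (29% of all genes) and 2 rose (22.9%) at MII, with a median of −0.52. Dnmt1, the maintenance DNA methyltransferase, fell by 0.92 (adjusted p = 3.87e-12), and Uhrf2, a relative of the factor that recruits it, fell by 1.72 (adjusted p = 2.62e-05), while Zfp57, which protects imprints, rose by 0.45 (adjusted p = 1.02e-07). Of 6 tested transcription factors of oocyte growth, 2 rose (22.9% of all genes) and 1 fell (29%), Figla by 1.22 (adjusted p = 2.72e-06). At MII 2 of the 6 factors were higher in D2 than in B6 (13.4% of all genes) and 1 was lower (13%). Those higher were Nobox, by 0.66 (adjusted p = 2.63e-05), and Taf4b, by 0.98 (adjusted p = 3.96e-06).

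Of 14 tested NOD-like receptor genes outside the 10 members, 1 rose (22.9% of all genes) and 5 fell (29%) at MII, with a median of −0.19. Among those that fell were Naip1 (−0.82, adjusted p = 3.63e-06) and Nod1 (adjusted p = 7.22e-05). Nod1 averaged 0.0722 CPM in MII libraries, with a median of 0, and 0.744 CPM in GV libraries, too few reads for a firm fold. At MII 4 of the 14 were lower in D2 than in B6 (13% of all genes), with Naip1 at −1.84 and Nod2 at −1.25. Of 7 tested inflammasome partners 2 rose (22.9% of all genes) and 2 fell (29%) at MII. Pycard, the adaptor of inflammasomes, was called lower (adjusted p = 4.13e-04) at very few reads, at most 4 in any MII library, where its median was 0, and at most 12 in any GV library. Casp8 rose by 0.58 (adjusted p = 3.98e-05). The granulosa markers that were lower at MII moved with these lists too, and their part in them was not tested.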

How the data were processed

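RNA-seq libraries of mouse oocyte pools were made by isothermal amplification and 12 PCR cycles and read as 50-base single reads, per the labels' protocols. The authors deposited raw read counts per gene, 1 column per library. HISAT2, SAMtools, featureCounts (Subread 1.5.1), DESeq2 1.16.1 and GRCm38.p4 are named in the submitters' processing notes, and strand and multimapping settings are not given in the sources used here. Of 37444 entries, 3 named no gene (at most 0.019% of a library) and were left out. Entries without a RefSeq name held 0.212% of counts.

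The counts were fitted in edgeR 4.0.16 (R 4.3.3) with TMM scaling, filterByExpr, robust quasi-likelihood and a model of 6 groups plus batch, over 19003 genes, and p-values were adjusted within each of 13 comparisons and 2 added ones. Fold changes are MII over GV, D2 over B6 and F1 over its parent or the parents' mean, and SE is the log2 change over the square root of F. CPM uses TMM-scaled library sizes, and log2 CPM for likeness adds a prior count of 3. The fit was tested on simulated counts. The 2 added comparisons, the likeness of Nlrp2 and the fit without 3 GV libraries were chosen after seeing the data. Alternatives were other scalings, filters, DESeq2 1.42.0, limma 3.58.1, batch and marker terms, the replicate number as a block, and leaving out each library. Each pool came from a single mother, and the libraries were treated as biological replicates. Whether pools with the same replicate number share a mother was not settled. Depth leaves counting error small beside the spread of the libraries, the lowest member count being 862. PCR copies without molecular identifiers are not independent molecules.

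The members were given by name. They, the gene lists and the tests were chosen with earlier results of these data known. All members are named. From other lists, up to 4 genes past the threshold with the lowest adjusted p in the stage or D2 against B6 comparisons could be named, and for likeness the 5 highest correlations among RefSeq-named, non-predicted genes of at least 5 CPM. Sequences are from GENCODE (GRCm38) and RefSeq (GRCm38.p6). Nlrp14 has no upstream sequence shown. In 2 of the likeness lists, 1 gene each is not reported here.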

Additional observations from a re-analysis of the deposited data

Results flagged for a closer look

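The change of Nlrp2 between the stages was flagged because it differed between strains by a test of the difference itself. The MII to GV log2 ratio was −0.03 in D2 and −0.88 in B6, and the difference, D2 minus B6, was 0.85 ± 0.16 (SE, edgeR, adjusted p = 0.0142). Each of the 60 sets of 5 or 6 libraries, 1 per member and group, was also searched for a library far from the others, and 0 were found. Without a batch difference chance gives about 1 in 20. Every set pooled both batches, between which all members differed. That widens the spread within a set, so the search could miss such a library.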

How the results depend on the processing

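The falls of Nlrp2 and Nlrp14 over the strains, in F1 and in B6 kept their direction and their call in all 14 other settings and without any 1 library. Counts of called members moved by more than 1.5 times as follows, with the reported count first. For the stage averaged over strains (8), there were 5 on library totals, 3 in batch 2 alone and 2 with the granulosa covariate. For F1 (7) there were 4 on library totals, 4 with no filter, 2 without a batch term, 2 in batch 2 alone and 2 with the covariate. For D2 (6) there were 1 on totals, 0 without a batch term, 3 in batch 1 alone, 0 in batch 2 alone and 1 with the covariate. For B6 (2) there were 4 in batch 1 alone and 5 without the 3 low-granulosa GV libraries.

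For D2 against B6 at GV (1) there were 2 on totals, 2 with a filter of 1 CPM in 16 libraries, 3 with DESeq2, 0 without a batch term, 2 in batch 1 alone, 0 in batch 2 alone and 2 with the covariate, and at MII (4) 2 without a batch term and 2 in batch 2 alone. For F1 against B6 at MII (2) there was 1 under median-of-ratios scaling, 1 under upper-quartile scaling, 1 on totals, 1 with no filter, 0 without a batch term, 1 in batch 1 alone and 0 in batch 2 alone, and at GV (0) 1 in batch 2 alone. For F1 against D2 at MII (2) there was 1 without a batch term, 1 in batch 1 alone and 0 in batch 2 alone. For F1 against the mean of its parents at MII (0) there was 1 with DESeq2 and 1 in batch 1 alone. For stage by strain (1) there were 0 without a batch term, 0 in batch 1 alone and 0 in batch 2 alone. Calls over all genes moved between settings too, as given above for the stage averaged over strains. For D2 against B6 at MII, 2552 genes were higher and 2467 lower in the reported fit. These were 1824 and 1791 without a batch term and 1059 and 1101 in batch 2 alone. For stage by strain, 0 of 19097 genes were called in batch 2 alone. A single batch has fewer samples, and other causes were not tested.

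Leaving out 1 library gave 8 to 9 calls for the stage over strains, 4 to 8 in F1, 3 to 6 in D2, 2 to 5 in B6, 0 to 3 for D2 against B6 at GV and 3 to 5 at MII, 1 to 2 for F1 against B6 and for F1 against D2 at MII, 0 to 1 against the mean of the parents at MII, 0 to 1 for stage by strain, and 0 in the other comparisons. Among results called in the reported or the other fit, direction turned over strains for Nlrp4c on totals (−0.00053) and with the covariate (−0.0016). It also turned for Nlrp4f with the covariate (−0.0067), and for Nlrp9c in batch 2 alone (−0.079) and with the covariate (−0.073). In D2 it turned for Nlrp9c in batch 2 alone (−0.0092). Estimates called in neither fit turned as well, such as Nlrp9a over strains on totals (−0.053) and Nlrp9b in B6 in batch 2 alone (−0.32).

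With the replicate number as a block there was 1 call for F1 against B6 at MII (Nlrp4c lost), 1 for F1 against D2 at MII (Nlrp14 lost) and 0 for stage by strain. Whether the numbers pair the samples was not settled. Over 43 pairs with the same number, deviations from the group means correlated at −0.39 to 0.093, with 0 over 0.1. Only 11 of these pairs were of the same strain, and with so few libraries per group and batch this check cannot exclude pairing. None of the 6 rises over the strains was called in batch 2 alone or with the granulosa covariate. Read sharing limits Nlrp4e.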
